A study of Sus scrofa with 6 samples.

Results

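MMP1, MMP3 and ADAMTS1 encode secreted zinc proteases of the extracellular matrix, and their transcripts were followed here in pig aortic valve leaflets held under hypertensive or normotensive cyclic pressure. The genes were taken as all probe sets, control probe sets aside, whose platform annotation gives a single gene symbol that is one of these 3, which makes 3 of 6765 genes so annotated on the array. They were singled out because their signals differed between the pressure groups in these same data, so that difference is given below as a description with no test. MMP1 had 1 probe set, MMP3 had 4 and ADAMTS1 had 2.

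The 3 hypertensive arrays came from leaflets cycled between 0 and 120 mmHg, and the 3 normotensive arrays from leaflets cycled between 0 and 80 mmHg, in both groups at 1 Hz for 24 h. All leaflets came from adult female pigs, had their endothelium removed with collagenase II, rested overnight and were kept in DMEM with 10% fetal bovine serum, so both groups had met an exogenous collagenase and serum before and during the experiment. The labels describe the RNA as that of aortic valve interstitial cells and the samples as biological replicates. They do not settle whether samples came from separate animals, so all errors and p-values below reflect sample-to-sample spread that could be technical.

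MMP1 is the interstitial collagenase, able to cut intact triple-helical collagen of the fibrillar types. MMP3, stromelysin, cuts proteoglycans, fibronectin, laminin and basement membrane collagen, and also activates the proenzyme of MMP1. ADAMTS1 is a protease with thrombospondin motifs that cuts the large proteoglycans aggrecan and versican. MMP1 and MMP3 are secreted by connective tissue cells as inactive precursors and are held in check by tissue inhibitors of metalloproteinases, the TIMPs. In the valve leaflet, collagen carries the diastolic load and proteoglycans fill the middle layer, and interstitial cells make and renew both. The arrays measure transcripts and not the activity of the enzymes.

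The values are MAS5 signals, a linear intensity for each probe set that the authors had scaled to a common level on each array, with 2% trimmed means of 500.1 on all 6 arrays. A signal of 48.5, the 40th percentile of mean log2 signal over all probe sets, serves as the filter level below which a signal is treated as dim. Correlations over the 14399 kept probe sets were 0.847 to 0.926 between hypertensive arrays and 0.952 to 0.978 between normotensive arrays. Hypertensive replicate 2 lay nearest to the normotensive arrays (mean correlation 0.950), followed by replicate 3 (0.895) and replicate 1 (0.817). Of 7 measured interstitial cell genes, VIM, DCN, LUM and POSTN had signals of 4740 or more on every array. The others fell lower, PDGFRB to 3399 and COL3A1 to 527.5 on hypertensive replicate 1 and ACTA2 to 267 on hypertensive replicate 2. Of 9 endothelial markers, ERG, PECAM1, SELP and ENG were above the filter level on all 6 arrays and VWF, KDR and TIE1 below it on all 6. In bulk samples, fewer cells of a type and less RNA per cell cannot be told apart.

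MMP3 was the gene with the widest separation. Its brightest probe set had signals of 14136, 797 and 3135 on hypertensive replicates 1, 2 and 3, against 46.9, 27.2 and 23.1 on normotensive replicates 1, 2 and 3. Every normotensive value lay below the filter level and every hypertensive value was at least 16.4 times that level. The difference is therefore a lower bound, and the MMP3 mean was at least 67.6-fold higher in the hypertensive group (log2 bound 6.08; SD of the log2 signals 2.08 in the hypertensive and 0.53 in the normotensive group, n = 3 each). Leaving out hypertensive replicate 1 lowered the bound to 32.6-fold, leaving out replicate 2 raised it to 137-fold, and it lay between 67.6- and 69.2-fold when any of the other 4 arrays was left out.

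The further MMP3 probe sets ran the same way. The next brightest had 9611, 640 and 2051 on the hypertensive arrays, against 36.8, 33.7 and 22.3 on the normotensive arrays, a bound of 48.0-fold. This bound became 23.6-fold when hypertensive replicate 1 was left out and 91.5-fold when replicate 2 was. The ratio of the brightest MMP3 probe set to this one was 1.47, 1.24 and 1.53 on the hypertensive arrays, and both placed the hypertensive arrays in the same order. The remaining pair did not pass the filter, since their mean log2 signals lay under it. One had 356, 47.9 and 98.2 on the hypertensive arrays, against 6.22, 1.22 and 16.3 on the normotensive arrays. The other had 180, 45.8 and 72.2 on the hypertensive arrays, against 11.5, 32.8 and 24.6 on the normotensive arrays. On both, hypertensive replicate 2 also lay below the filter level, so these probe sets give only small bounds, of 2.46-fold and 1.77-fold, although their groups did not overlap. With the mean of all 4 probe sets in place of the brightest, the log2 bound was 3.45. The MMP3 probe sets that passed the filter did so through the hypertensive arrays alone. RefSeq lists MMP10 among the synonyms of pig MMP3 (gene 396769), so the symbols of stromelysins from other species may meet in this one.

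MMP1, in contrast, was already well above the filter level under normotensive pressure. Its single probe set had 16323, 2967 and 7616 on hypertensive replicates 1, 2 and 3, against 807, 1790 and 777 on normotensive replicates 1, 2 and 3. All hypertensive arrays lay above all normotensive arrays, with the lowest hypertensive signal 1.66 times the highest normotensive one. The geometric mean was 7172 in the hypertensive group and 1039 in the normotensive group, a ratio of 6.90 (log2 difference 2.79, SE 0.60, n = 3 each). The ratio became 4.58 when hypertensive replicate 1 was left out and 10.7 when replicate 2 was. Normotensive replicate 2 stood out within its group, at 2.30 times the lowest normotensive array, and the fold was 9.06 without it.

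ADAMTS1 also had clear normotensive signal, and both of its probe sets gave nearly the same picture. The brighter one had 9932, 2015 and 2516 on the hypertensive arrays, against 1114, 418 and 1064 on the normotensive arrays. The geometric means were 3692 in the hypertensive and 791 in the normotensive group, a ratio of 4.67 (log2 difference 2.22, SE 0.63, n = 3 each), which was 2.85 without hypertensive replicate 1. The dimmer one had 8543, 1356 and 3340 on the hypertensive arrays, against 815, 331 and 999.8 on the normotensive arrays. Its geometric means were 3382 in the hypertensive and 646 in the normotensive group, a ratio of 5.23 (log2 difference 2.39, SE 0.67), which was 3.29 without hypertensive replicate 1 and 8.27 without replicate 2. The groups did not overlap on either probe set, with the lowest hypertensive signal 1.81 and 1.36 times the highest normotensive one. The ratio of the brighter to the dimmer ADAMTS1 probe set was 1.16, 1.49 and 0.753 on hypertensive replicates 1, 2 and 3, so its direction turned on replicate 3.

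**Figure D1:**
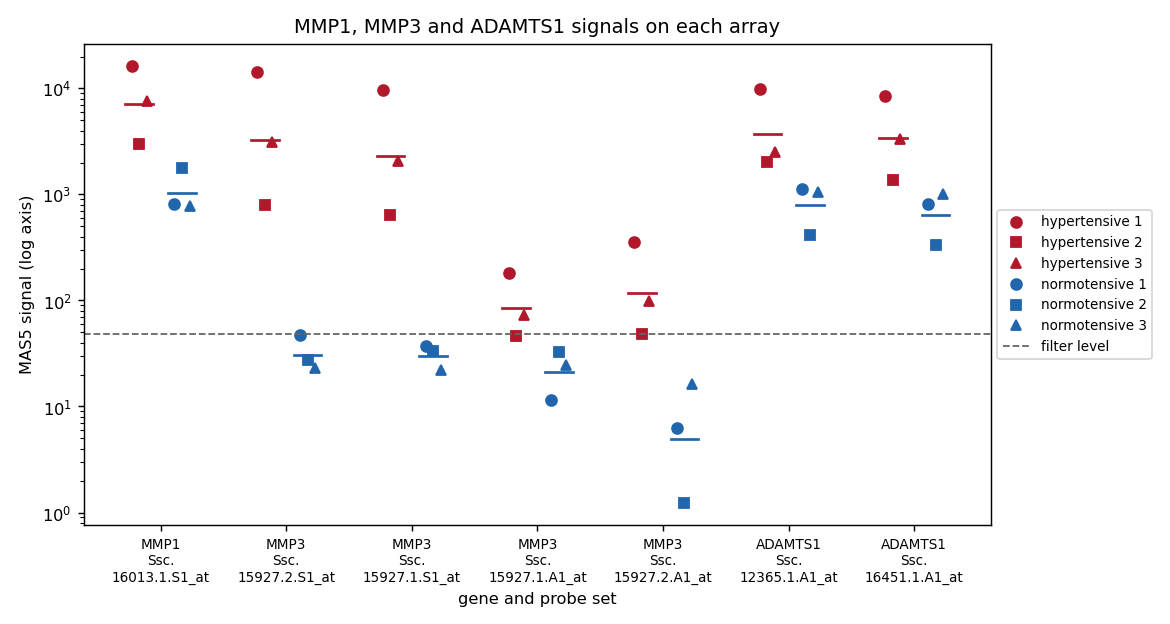
MAS5 signal (log axis) of the 7 probe sets of MMP1, MMP3 and ADAMTS1 on each array, hypertensive in red and normotensive in blue; symbols mark the replicate, short lines the geometric mean of 3 arrays and the dashed line the filter level of 48.5. Probe sets run from left to right as MMP1, the 2 that passed and the 2 that did not pass the filter for MMP3, and the brighter and dimmer one of ADAMTS1. All hypertensive points lie above all normotensive points of the same probe set, and the normotensive MMP3 points all lie below the filter level.

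The groups did not overlap, with the hypertensive arrays higher, in 7 of 7 probe sets of these genes, of which 5 passed the filter. The same held for 10.4% of the 14399 kept probe sets and for 9.49% of all 23999 probe sets. Since the genes were chosen on this contrast, nothing is read from that count. By limma with Benjamini-Hochberg adjustment over all kept probe sets, 0% were called in either direction, while 16.9% (2436 probe sets) had p under 0.05 before adjustment, 7.39% (1064) on the higher side and 9.53% (1372) on the lower. The adjusted count turned on single arrays, being 3505 when hypertensive replicate 2 was left out and 1 when normotensive replicate 2 was, and 0 when any of the other 4 was.

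Ranked by log2 difference among the 14399 kept probe sets, with signals below the filter level raised to it, the bright MMP3 probe sets took ranks 1 and 2. MMP1 took rank 33, and the ADAMTS1 probe sets took ranks 59 and 73. The 5th and 95th percentiles of the log2 difference over kept probe sets were -1.29 and 1.07. The genes were chosen on this contrast, so the ranks only describe its size.

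The hypertensive arrays kept the order replicate 1, then 3, then 2 in all 7 probe sets. That order was common, being found in 50.4% of the 1501 kept probe sets that were higher without overlap. The signal of the brightest MMP3 probe set on hypertensive replicate 1 was 17.7 times that on replicate 2, against 5.50 times for MMP1 and 4.93 and 6.30 times for the ADAMTS1 probe sets, between which MMP1 lay. Spread of this size was at the high end of the array, as the SD of log2 signals within the hypertensive group exceeded that of 99.3% of kept probe sets for MMP3, 93.1% for MMP1 and 93.3% for ADAMTS1.

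Hypertensive replicate 2, the array nearest to the normotensive ones, still held each gene above its normotensive mean. MMP3 was at 16.4 times the filter level there, and no kept probe set showed a larger rise on that array. MMP1 was at 2.86 times its normotensive mean, a rise exceeded by 0.757% of kept probe sets. ADAMTS1 was at 2.55 and 2.10 times, exceeded by 1.10% and 2.23%. On hypertensive replicate 1 the same quantities were at least 292-fold for MMP3, 15.7-fold for MMP1 and 12.6- and 13.2-fold for ADAMTS1. These shares and folds come from the contrast on which the genes were chosen, and nothing further is read from them.

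**Figure D2:**
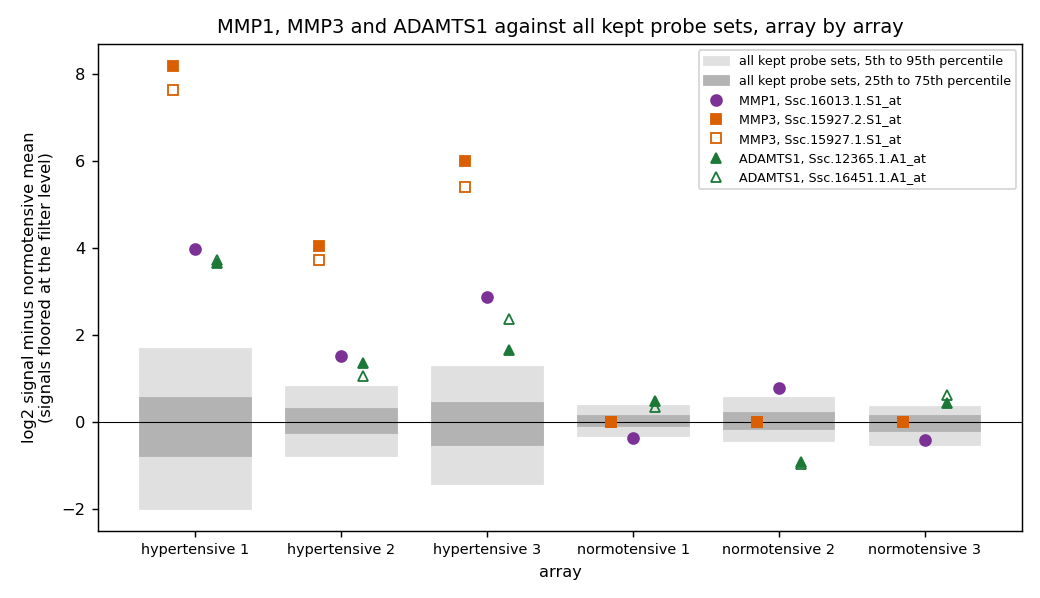
Log2 signal on each array minus the mean of the normotensive arrays, with signals raised to the filter level, for the 5 probe sets that passed the filter (coloured symbols) and for all 14399 kept probe sets (light bars, 5th to 95th percentile; dark bars, 25th to 75th). On every hypertensive array the coloured symbols lie above the 95th percentile, and on normotensive replicate 2 MMP1 lies above that range while both ADAMTS1 probe sets lie below it. The genes were chosen on the contrast between the groups.

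The normotensive arrays also separated MMP1 from ADAMTS1. MMP1 was highest on normotensive replicate 2, where its log2 signal lay 0.78 above the group mean, and lay 0.36 and 0.42 below it on replicates 1 and 3. ADAMTS1 was lowest on the same array, at 0.92 and 0.96 below its group mean on its pair of probe sets. The SD within the normotensive group was 0.68 for MMP1 and 0.80 and 0.85 for ADAMTS1, against a median of 0.23 over kept probe sets. The normotensive signals are 1 side of the contrast on which the genes were chosen, so these within-group values are not independent of that choice. With 1 array per replicate they carry no test.

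**Figure D3:**
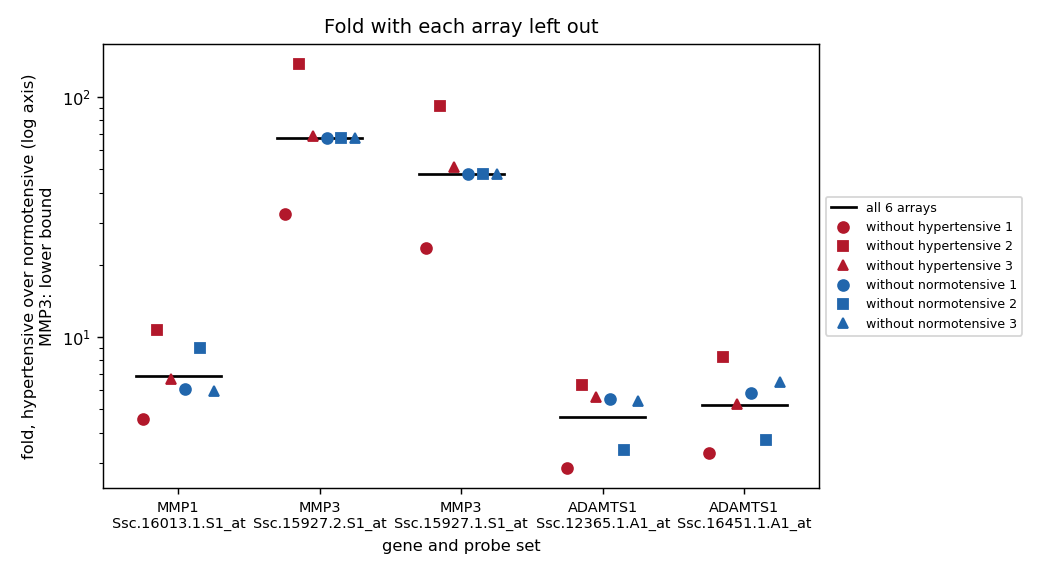
Ratio of hypertensive to normotensive geometric mean (log axis) for the 5 probe sets that passed the filter, with all 6 arrays (black line) and with each array left out (symbols); for MMP3 the values are lower bounds against the filter level. Leaving out hypertensive replicate 1 gives the lowest value of each probe set and leaving out hypertensive replicate 2 the highest.

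Genes of similar pattern were sought by the root-mean-square difference of log2 signals over the 6 arrays, each gene taken relative to its normotensive mean, among 5271 kept genes. The values describe likeness over 6 samples that share the same pressure groups. The normotensive arrays enter the measure, so a shared pattern within that group follows from how the genes were picked. For MMP1 the nearest 5 were the monocyte chemokine CCL8 (0.26), the interferon-induced IFIT3 (0.28), C1H15orf48 (0.32), the nucleic acid sensor ZBP1 (0.36) and the ubiquitin-like ISG15 (0.40). CCL8 had 8454, 1184 and 2780 on the hypertensive arrays, against 402, 644 and 435 on the normotensive arrays, and like MMP1 it was highest of its group on normotensive replicate 2. All 5 of these genes were highest on normotensive replicate 2.

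For ADAMTS1 the nearest were RGCC, a regulator of the cell cycle (0.17), the syntaxin STX11 (0.25), the inducible cyclooxygenase PTGS2 (0.41), the mitochondrial arginase ARG2 (0.49) and the chemokine CCL4 (0.51). RGCC had 2941, 614 and 1066 on the hypertensive arrays, against 354, 140 and 368 on the normotensive arrays. All 5 were lowest of the normotensive group on replicate 2, as ADAMTS1 was, which the measure that picked them favours. PTGS2 had 15802, 3240 and 2465 on the hypertensive arrays, against 1918, 893 and 1885 on the normotensive arrays.

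For MMP3 no gene came near, as the nearest were IL6 at 1.28, the antiviral GTPase MX2 at 1.68, the pentraxin PTX3 at 2.02, CCL3L1 at 2.12 and the acyl-CoA synthetase ACSL1 at 2.27. IL6 had 22566, 297 and 2104 on the hypertensive arrays, against 81.5, 101 and 29.0 on the normotensive arrays, so that, relative to its normotensive mean, it came closer to MMP3 on hypertensive replicate 1 than on replicate 2. The normotensive MMP3 signals in this measure lie below the filter level, so its distances carry that uncertainty. The measure is also not scaled for size, and MMP3 ranked 1 in log2 difference. Its distances therefore reflect the size of that difference as well as the pattern. Among the 3 genes themselves, MMP1 and ADAMTS1 lay 0.995 apart, and MMP3 lay 2.89 from MMP1 and 3.27 from ADAMTS1. Limma's adjusted p for the 15 genes named as similar lay between 0.115 and 0.278, so none was called.

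**Figure D4:**
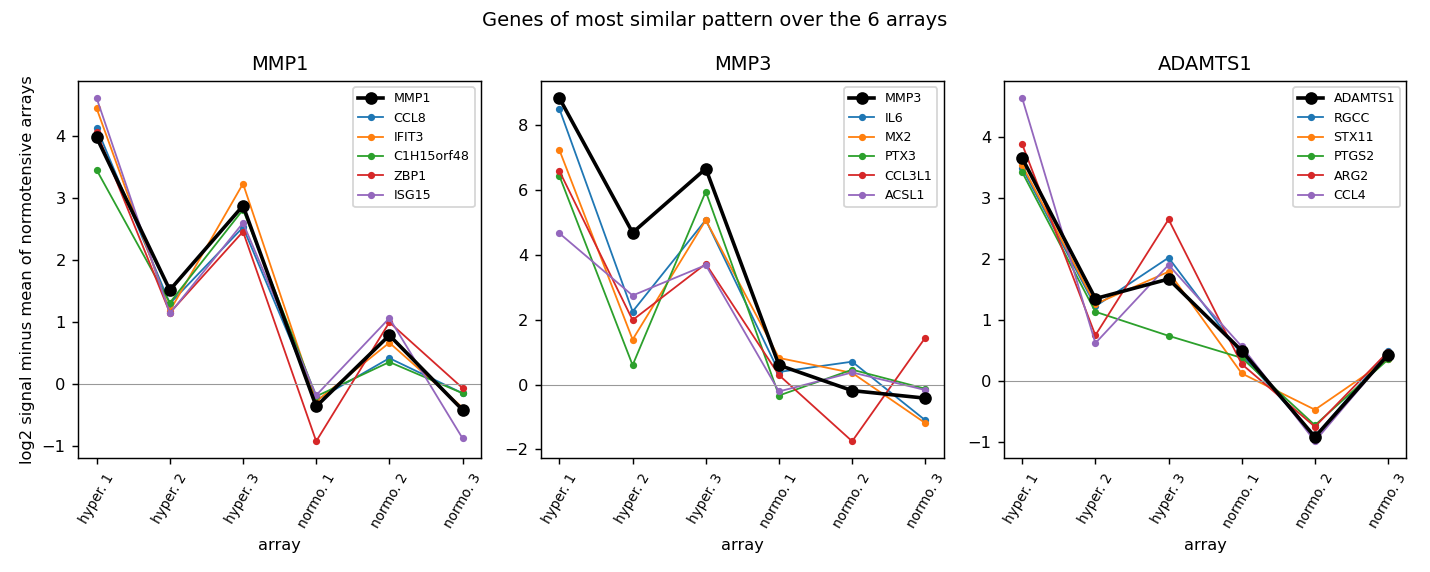
Log2 signal minus the mean of the normotensive arrays on each of the 6 arrays, for MMP1, MMP3 and ADAMTS1 (black) and the 5 genes of most similar pattern for each (coloured). MMP1 and its neighbours peak within the normotensive group on replicate 2, where ADAMTS1 and its neighbours are lowest. The neighbours were picked for likeness on these same 6 arrays.

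Close relatives of these enzymes and their neighbours on the chromosome were measured in part. In the RefSeq annotation of the pig assembly Sscrofa11.1, MMP1 lies next to MMP3 in a run of metalloproteinase genes that also holds MMP7, MMP20, MMP27, MMP8, MMP12 and MMP13. Of those 6, MMP7, MMP20 and MMP13 had probe sets with a single symbol, and none passed the filter. MMP13, a collagenase like MMP1, had 79.7, 8.31 and 10.3 on the hypertensive arrays, against 23.5, 38.8 and 41.2 on the normotensive arrays. MMP7 reached 47.5 and MMP20 reached 24.1 on their highest array. So of the 5 measured genes in this run only MMP1 and MMP3 had signals above the filter level on all hypertensive arrays. At the ends of the run, TMEM123 had 3481, 1460 and 2095 on the hypertensive arrays, against 1065, 1262 and 1099 on the normotensive arrays, and DCUN1D5 had overlapping groups. ADAMTS5, the near neighbour of ADAMTS1 in that annotation, had no probe set annotated to it as the single gene.

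Of the 9 lists of related genes, which hold 132 entries, 51 genes had a kept probe set. None passed limma's adjusted threshold in the main fit, higher or lower, with adjusted p between 0.199 and 0.897, against 0% of all kept probe sets. At an unadjusted p under 0.05 there were 11 higher and 3 lower genes, where 7.39% of kept probe sets were higher and 9.53% lower. The groups did not overlap in 15 higher and 3 lower genes, where 10.4% of kept probe sets were higher without overlap and 12% lower. The median log2 difference was 0.14 over the 51 genes and -0.07 over all 5271 kept genes. Without hypertensive replicate 2, 3505 of all 14399 kept probe sets passed, and with array weights 5639. Calls of listed genes in those settings are therefore not particular to them.

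Other metalloproteinases of the matrix moved little by comparison, and none passed in the main fit. Of 6 with a probe set, 3 were kept, and their median log2 difference was 0.56, against -0.07 over all 5271 kept genes. The gelatinase MMP2, which cuts denatured collagen, had 9635, 7975 and 7580 on the hypertensive arrays, against 6059, 6682 and 4448 on the normotensive arrays. That is a ratio of 1.48 (log2 difference 0.56, SE 0.21, limma adjusted p = 0.273), with groups that did not overlap. The membrane-bound MMP14, which activates MMP2, had 222, 187 and 225 on the hypertensive arrays, against 138, 166 and 103 on the normotensive arrays (log2 difference 0.66, SE 0.30, limma adjusted p = 0.304). MMP9 had signals of 55.7 to 85.1 over both groups, with overlapping groups and a log2 difference of -0.15 that was 0.02 without normotensive replicate 1.

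Of the ADAM and ADAMTS relatives, 4 of 7 genes with a probe set were kept, and 1 had a higher and 3 a lower mean (median log2 difference -0.47). ADAM17, the sheddase that releases TNF from the cell surface, had 1194, 740 and 747 on the hypertensive arrays, against 480, 625 and 514 on the normotensive arrays (log2 difference 0.70, SE 0.30, limma adjusted p = 0.291). The only other ADAMTS gene kept, ADAMTS6, had overlapping groups and a log2 difference of -0.33 (SE 0.44), which was 0.17 without hypertensive replicate 1.

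The inhibitors differed in direction, and none passed in the main fit. Without hypertensive replicate 2, TIMP1, TIMP3 and TIMP2 passed (limma adjusted p = 0.0301, 0.0146 and 0.0475), as did 3505 of all 14399 kept probe sets. TIMP1 had 24805, 15176 and 12269 on the hypertensive arrays, against 9243, 8241 and 7647 on the normotensive arrays (log2 difference 1.00, SE 0.25, limma adjusted p = 0.235). TIMP3, which binds to the matrix and inhibits ADAMTS proteases as well as MMPs, had 117, 181 and 70.4 on the hypertensive arrays, against 318, 283 and 225 on the normotensive arrays (log2 difference -1.26, SE 0.39, limma adjusted p = 0.257). A further TIMP3 probe set was also lower, with overlapping groups (log2 difference -0.82, SE 0.44, limma adjusted p = 0.354). Its highest hypertensive signal, 138, lay on replicate 3, where the brightest TIMP3 probe set had its lowest. TIMP2 was lower on its brightest probe set (log2 difference -0.56, SE 0.19) and 0.20 higher on a further one, with overlapping groups. The broad inhibitors A2M and TFPI2 had log2 differences of -0.19 and 0.14, and both changed sign under another setting, TFPI2 at -0.01 with quantile normalization. TIMP4 did not pass the filter.

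The list of the plasminogen system, which activates precursor metalloproteinases through plasmin, and of related genes had 5 kept genes. Of these, 4 had a higher mean, the median log2 difference was 0.76, and none passed in the main fit. The 4 were the activators PLAU and PLAT and the inhibitors SERPINE2 and SERPINB2, so the count gives no direction for the system. BSG had a log2 difference of -0.20, and plasminogen itself (PLG) did not pass the filter. Urokinase (PLAU) had 5619, 2852 and 4554 on the hypertensive arrays, against 2528, 2195 and 2731 on the normotensive arrays (log2 difference 0.76, SE 0.28, limma adjusted p = 0.273). Its groups did not overlap, and it passed without hypertensive replicate 2 (limma adjusted p = 0.0121). Tissue plasminogen activator (PLAT) had 24557, 5726 and 7627 on the hypertensive arrays, against 6469, 5865 and 5023 on the normotensive arrays, and its log2 difference of 0.83 was 0.20 without hypertensive replicate 1. The plasminogen activator inhibitor SERPINB2 had 15877, 126 and 1786 on the hypertensive arrays, against 132, 577 and 67.6 on the normotensive arrays. Its log2 difference of 3.15 (SE 1.56) came with overlapping groups, since hypertensive replicate 2 lay below normotensive replicates 1 and 2. It was 1.46 without hypertensive replicate 1, and 4.95 without replicate 2. There it passed (limma adjusted p = 0.0163), as did 3505 of all 14399 kept probe sets.

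Transcripts of the proteins these enzymes cut did not pass in the main fit either. Of fibrillar collagens cut by MMP1, 3 were kept: COL3A1 had a log2 difference of -1.02 (SE 0.65), COL1A2 of -0.25 (SE 0.47) and COL2A1 of 0.24 (SE 0.27). COL3A1 was at 527, 4309 and 1789 on the hypertensive arrays, against 2989, 3420 and 3337 on the normotensive arrays. COL1A2 had 303, 426 and 211 on the hypertensive arrays and COL2A1 had 150, 153 and 149. A link of these transcripts with MMP1 was not tested. The COL3A1 difference was -0.22 without hypertensive replicate 1 and -1.74 without hypertensive replicate 2. Without replicate 2 it passed (limma adjusted p = 0.0304), as did 3505 of all 14399 kept probe sets. It also passed with array weights (limma adjusted p = 0.0282), as did 5639 of the kept probe sets. A further COL1A2 probe set differed by -0.93 (SE 0.30), lower without overlap. Of 7 kept MMP3 substrates, 3 had a higher and 4 a lower mean, with a median of -0.04. The laminin chain LAMB1 was at 1.31 times the normotensive signal and fibronectin (FN1) at 0.972 times, while a further FN1 probe set had a log2 difference of -1.74 (SE 0.55, limma adjusted p = 0.257) with overlapping groups.

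Of 6 kept ADAMTS1 substrates, versican (VCAN), the main large proteoglycan of the leaflet, had 11870, 10729 and 6541 on the hypertensive arrays, against 5361, 6758 and 5973 on the normotensive arrays (log2 difference 0.65, SE 0.25, limma adjusted p = 0.276). A further VCAN probe set had 4648, 2614 and 2285 on the hypertensive arrays, against 1246, 1672 and 1381 on the normotensive arrays (log2 difference 1.09, SE 0.31), and here the groups did not overlap. Yet another VCAN probe set differed by -0.05. Nidogen 2 (NID2), a basement membrane glycoprotein, had 2045, 2027 and 1779 on the hypertensive arrays, against 3302, 2528 and 3527 on the normotensive arrays (log2 difference -0.67, SE 0.23, limma adjusted p = 0.269). Aggrecan (ACAN) had overlapping groups and a log2 difference of -0.28 (SE 0.44).

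**Figure D5:**
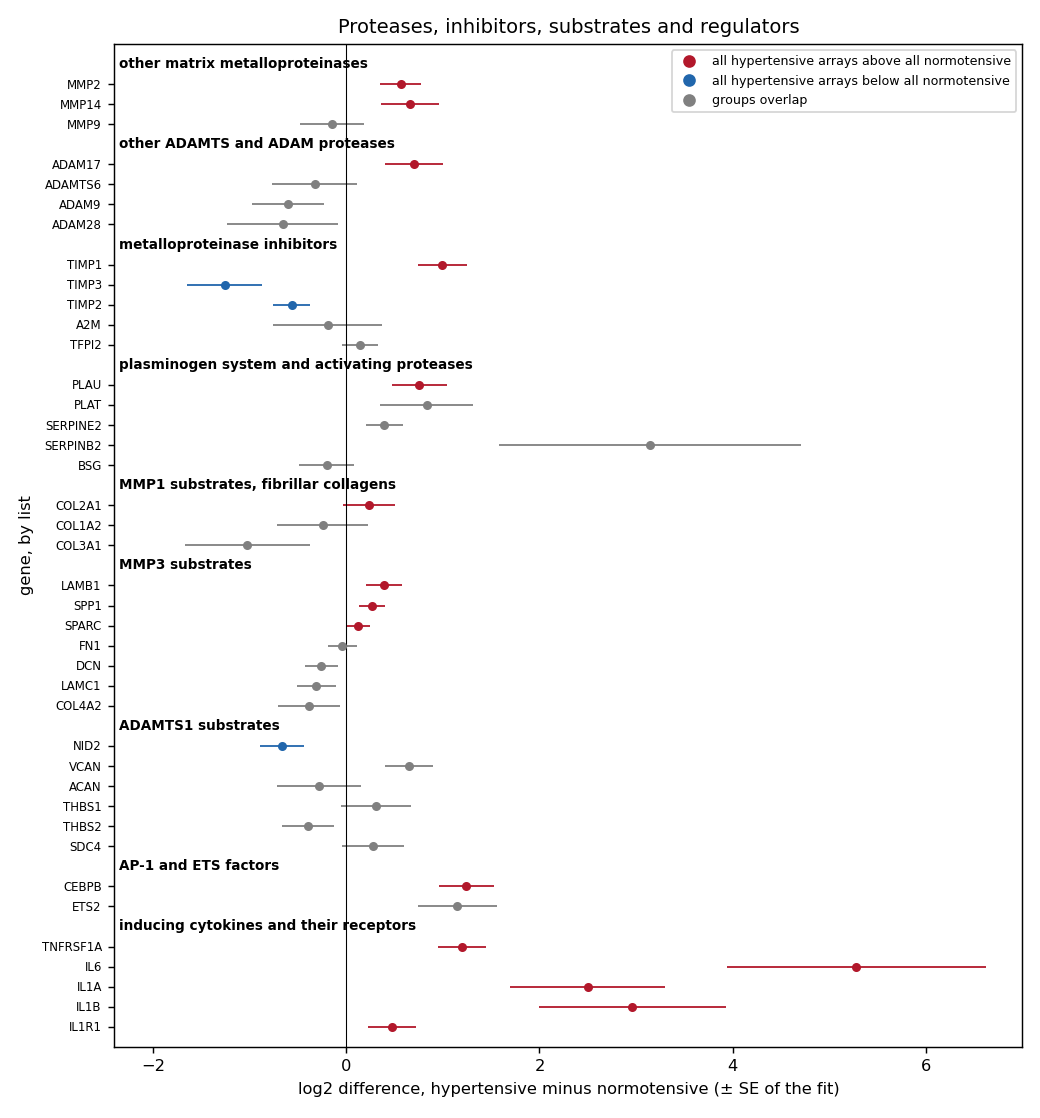
Log2 difference, hypertensive minus normotensive, with the SE of the limma fit (3 arrays per group), for the genes named from the lists of proteases, inhibitors, substrates and regulators. Red marks genes with all hypertensive arrays above all normotensive ones, blue the opposite and grey overlapping groups. None passed the adjusted threshold in the main fit.

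Transcription factors of the AP-1 and ETS families and inflammatory cytokines are textbook inducers of MMP1 and MMP3. The list of such factors, to which CEBPB of the C/EBP family was added, had 8 kept genes, 4 with a higher mean (median log2 difference 0.09). The AP-1 subunits FOS and JUN had overlapping groups and log2 differences of -0.36 (SE 0.35) and -0.31 (SE 0.43). CEBPB, a factor of the inflammatory response, had 9914, 6385 and 4789 on the hypertensive arrays, against 2688, 3302 and 2590 on the normotensive arrays (log2 difference 1.24, SE 0.29, limma adjusted p = 0.222). ETS2 had 3928, 1485 and 3911 on the hypertensive arrays, against 1076, 1655 and 1180 on the normotensive arrays (log2 difference 1.15, SE 0.41), with groups that overlapped on this probe set and not on its other 2 kept ones. Neither passed.

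Among cytokines and receptors, 7 of 10 kept genes had a higher mean, with a median log2 difference of 0.50, and 5 were higher without overlap, as were 10.4% of kept probe sets. For the interleukin receptor IL1R1, which is among the 5, a further kept probe set was lower without overlap (log2 difference -0.68). The interleukins IL1A, IL1B and IL6 had log2 differences of 2.50 (SE 0.80), 2.96 (SE 0.96) and 5.28 (SE 1.34), each with the highest signal on hypertensive replicate 1 and the lowest hypertensive signal on replicate 2, as in the 3 proteases. Their limma adjusted p were 0.259, 0.262 and 0.235. Without hypertensive replicate 1 the differences were 1.45, 1.65 and 3.67, and without replicate 2 they were 3.27, 3.68 and 6.79. Each passed without replicate 2 (limma adjusted p = 0.0138, 0.0284 and 0.00466), as did 3505 of all 14399 kept probe sets. The calls are therefore not particular to the interleukins. IL6 lay below the filter level on normotensive replicate 3, and its difference was 5.03 with signals raised to that level. The TNF receptor TNFRSF1A had 6186, 3757 and 4819 on the hypertensive arrays, against 2339, 1836 and 2168 on the normotensive arrays (log2 difference 1.20, SE 0.25, limma adjusted p = 0.199). TNFRSF1A also passed without hypertensive replicate 2 (limma adjusted p = 0.00603). TNF itself did not pass the filter, at 246, 12.03 and 50.2 on the hypertensive arrays, against 22.4, 55.2 and 39.9 on the normotensive arrays.

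Marker genes of other cells were read beside these results. Of 10 leukocyte markers listed, 6 had probe sets, and their summed signal was 611 to 2119 on the hypertensive arrays and 1476 to 2608 on the normotensive arrays. On hypertensive replicate 1, where the 3 proteases were highest, the leukocyte sum was lowest. Most of the normotensive sum was CD163, a macrophage receptor, which had 270, 1794 and 875 on the hypertensive arrays, against 1497, 2261 and 1294 on the normotensive arrays. The other markers differed in direction, and 4 of the 6 had a higher hypertensive mean. They include CORO1A, higher without overlap and highest on replicate 1 with 173, and CD14 (log2 difference 0.86, overlapping groups). PTPRC was lower without overlap. Of the 4 neutrophil markers listed, the 3 with a probe set summed to 421, 92.7 and 130 on the hypertensive arrays, against 77.4, 29.0 and 63.5 on the normotensive arrays. The sum has the order of the 3 proteases through S100A9, which made up most of it on replicate 1, with 342. S100A8 (44.9, 36.8 and 26.2) and S100A12 (34.1, 30.3 and 26.8) were instead lowest of the group on hypertensive replicate 3. No neutrophil marker passed the filter. The order itself was found in 50.4% of the 1501 kept probe sets that were higher without overlap. The 9 endothelial markers summed to 2041 to 3883 on the hypertensive arrays and 2491 to 3049 on the normotensive arrays, and they moved apart. SELP, an adhesion receptor for leukocytes, had 2296, 784 and 368 on the hypertensive arrays, against 95.4, 245 and 90.6 on the normotensive arrays. It was higher without overlap and, like the proteases, highest on hypertensive replicate 1. Its lowest hypertensive signal lay on replicate 3, and that of the proteases on replicate 2. CDH5 was also higher and ERG lower without overlap, and limma's adjusted threshold was passed by none of the markers tested in the main fit. The 7 interstitial cell markers summed to 52873 to 64368 on the hypertensive arrays and 75551 to 77044 on the normotensive arrays, with LUM and POSTN lower without overlap. None of the 7 had a higher hypertensive mean. The 3 measured muscle markers stayed low, summing to 18.7 to 98.5 on the hypertensive arrays and 29.9 to 76.7 on the normotensive arrays, and the mast cell marker KIT lay at 48.8 to 68.3 on the hypertensive and 27.8 to 46.9 on the normotensive arrays. The 4 chondrocyte markers summed to 1175 to 2727 on the hypertensive arrays and 1048 to 1994 on the normotensive arrays. The part of these cells in the protease signals was not tested.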

How the data were processed

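Each deposited value is a MAS5 signal intensity, linear in scale, for 1 probe set on 1 array. GCOS and MAS5 are the tools that the submitters' processing notes name for the authors' work, and no version of them is given in the sources used here. Per the labels' protocols, the starting material was 70 ng of RNA, amplified in 2 cycles, of which 10 µg of cRNA went onto an Affymetrix Porcine Genome Array. Because the authors scaled each array to a common level, a shift of most transcripts in one direction would not show. The small number of arrays sets the precision.

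Of 24123 probe sets, 124 controls were left out, and of the others 10069 had 1 symbol in the platform annotation, 198 several and 13732 none. No probe set with several symbols held MMP1, MMP3 or ADAMTS1. Of the 10069, 9961 were found by gene ID in the RefSeq table, and 0 symbols changed. Signals were log2-transformed without a pseudocount, and the 14399 probe sets whose mean reached the 40th percentile of all were kept (5271 genes, each by its brightest probe set). Limma 3.58.1 in R 4.3.3 (lmFit, eBayes with an intensity trend, 2-sided) was fitted on all kept probe sets with Benjamini-Hochberg adjustment at 0.05, and was tested on simulated data. It tested related genes, and only the SE is used for MMP1, MMP3 and ADAMTS1. An SE or SD is on the log2 scale, and ratios are of geometric means. A bound is computed with every signal under 48.5 raised to that level.

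The genes and lists were chosen with earlier results of these data known. Named genes were the 5 of most similar pattern per protease, and from each list those with an unadjusted p under 0.05 or groups without overlap, or any gene of a list with up to 7 measured genes. FOS, JUN, TNF, the dim relatives and the chromosomal neighbours were named after their values were seen. Alternatives covered scaling, filter, pseudocount, floor, replicate block, array weights, variance trend, probe set averaging and each array left out. Whether replicate numbers pair the samples is not settled, and the main fit took them as unpaired. Deviations from the group means correlated at 0.059, 0.072 and 0.226 between same-numbered arrays. Between different-numbered arrays they correlated at -0.137 to 0.041. Sequences of the genes were not used here.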

Additional observations from a re-analysis of the deposited data

How the results depend on the processing

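The log2 differences of MMP1 and ADAMTS1 stayed positive and moved by less than 1 SD between replicates under all 14 alternatives, from 2.19 to 3.42 for MMP1 and from 1.51 to 2.66 for ADAMTS1, both ranges set by leaving out 1 array. The MMP3 bound ran from 5.03 to 7.10 with 1 array left out, and was 3.45 with the mean of all probe sets, which takes in the 2 below the filter. The count of kept probe sets past the threshold was 0 under the other scalings, filters, pseudocounts, floor and variance model. It was 0 with the replicate block too, where 2865 had an unadjusted p under 0.05, and the block changed no call. It was 5639 with array weights, which gave hypertensive replicate 2 a weight of 0.195. It ran from 0 to 3505 with 1 array left out, the highest count coming without hypertensive replicate 2. Without normotensive replicate 2 it was 1 (CYP3A29, a cytochrome P450, named after its value was seen). Probe sets without overlap numbered 3234, and 3831 to 7909 with 1 array left out, when fewer arrays need to separate.

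Some differences changed sign, and the cause was not tested. With array weights ADAMTS6 was at 0.018, ADAM28 at 0.19, TFPI2 at -0.20, SDC4 at -0.11 and GAPDH at -0.14. With quantile normalization TFPI2 was at -0.013, SPARC at -0.015 and GAPDH at -0.053, and with a median shift FN1 was at 0.017. With the mean of all probe sets SPARC was at -0.28, DCN at 0.66, IL1R1 at -0.10 and GAPDH at -0.19. With 1 array left out MMP9 ran from -0.25 to 0.021, ADAMTS6 from -0.58 to 0.17, ADAM28 from -1.06 to 0.015, A2M from -0.64 to 0.31, COL1A2 from -0.71 to 0.11, FN1 from -0.16 to 0.036 and ACAN from -0.66 to 0.13. Of 784 values for 56 further named genes, 705 kept direction and side of the threshold, 56 passed it and 23 changed sign. Signal near the filter level limits MMP3 under normotensive pressure and the MMP3 probe sets that did not pass the filter.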
